A study of Mus musculus with 6 samples.

Results

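The BCL7 proteins (Bcl7a, Bcl7b and Bcl7c) and 7 further subunits of the BAF chromatin remodelling complex (Smarca4, Smarcb1, Smarcc1, Smarcd1, Smarce1, Arid1a and Brd9) were followed at the RNA level in mouse eggs carrying tagged forms of the histone H3.3. These 10 genes were picked by symbol from the 24062 genes of the count table. Bcl7c was picked because its counts were known to be higher in eggs with H3.3R26K than in eggs with unmutated H3.3. All 10 genes were found in the table, and 9 of them passed the filter on low counts. Smarcd1 did not.

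The BAF complex, also called mammalian SWI/SNF, uses the energy of ATP to slide or evict nucleosomes and so opens DNA to other factors. Smarca4 (BRG1) or its paralogue Smarca2 is the motor, and Smarcc1 and Smarcd1 belong to the core of every form. Smarcb1 and Smarce1 belong to the canonical and PBAF forms and are missing from the non-canonical form. Arid1a defines the canonical form and Brd9 the non-canonical form. The BCL7 proteins are small accessory subunits. Maternal Smarca4, stored in the egg, is known to be needed for the start of transcription in the mouse embryo, and the MII egg itself, arrested in the second meiotic metaphase, is transcriptionally silent, so that its mRNA is a stored pool.

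Eggs came from super-ovulated females that were 8 weeks old and carried the multicolour histone transgene HISRainbow together with Figla-iCre, a recombinase under the promoter of an oocyte gene. The H3.3 group carried H3.3-eGFP, the K27R group H3.3K27R-mCherry and the R26K group H3.3R26K-eCFP, and eggs were sorted into these groups by their colour under a confocal microscope. Each group had 2 libraries, and all 6 share the age, the mouse line and the super-ovulation. Every H3.3 form had a tag of its own, so tag and substitution cannot be told apart. How many eggs and females stand behind a library is not known from the sources used here. In bulk RNA, a difference in the number of eggs that hold a transcript and a difference in the RNA per egg cannot be told apart.

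Library totals were 10803477 to 12748821 counts in the H3.3 and K27R groups, and 39603440 and 33786225 in the R26K group, so that depth moved with the group. All 11 egg markers had counts in every library, with summed levels of 46867 to 63416 CPM (counts relative to the library total, scaled by the trimmed mean of M values). Of 20 cumulus and granulosa markers, 4 to 17 had a count, with summed levels of 35.1 and 537 CPM with unmutated H3.3, 312 and 35.4 with K27R and 142 and 235 with R26K. Of 14 genes that mark immune, blood, epithelial or stromal cells, 4 to 6 had a count, with sums of at most 174 CPM, and Ptprc, Hba-a1, Hbb-b1 and Ovgp1 were at 0 in all libraries. Genes averaging 30 to 60 CPM in the other libraries had no count in 7.98% and 11.6% of cases in the H3.3 libraries and in 0.155% and 9.25% in the K27R libraries. In the R26K libraries these shares were 0% and 0.0791%. For genes averaging 10 to 20 CPM, they were 32.2% and 35.8% in H3.3 and 5.63% and 33.7% in K27R. In R26K that class had 1.69% and 1.31%. Low transcripts were thus missed most often in both H3.3 libraries and the second K27R library and least in R26K, and the part of these differences in the results was not tested.

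Bcl7c lies on chromosome 7 (127661456 to 127708933, minus strand, mm10) and Bcl7b on chromosome 5 (135168283 to 135181855, plus strand). Their promoters are shown because these are the 2 BCL7 genes with higher levels in the R26K libraries. The 250 bases before the RefSeq start are given (RefSeq, GRCm38.p6), 5′ to 3′ on the gene's strand, for Bcl7b chr5:135168122-135168371 (plus strand) and for Bcl7c chr7:127708767-127709016 (minus strand). Capitals mark GGGCGG (GC box) and CACGTG (E-box), both searched on both strands. The GENCODE gene start lies within each window.
Bcl7b: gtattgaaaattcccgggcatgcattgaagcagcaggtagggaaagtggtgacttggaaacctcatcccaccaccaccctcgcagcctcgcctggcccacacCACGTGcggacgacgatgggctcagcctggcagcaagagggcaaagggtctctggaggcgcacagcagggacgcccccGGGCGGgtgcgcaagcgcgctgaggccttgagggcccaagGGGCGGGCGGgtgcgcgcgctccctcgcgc
Bcl7c: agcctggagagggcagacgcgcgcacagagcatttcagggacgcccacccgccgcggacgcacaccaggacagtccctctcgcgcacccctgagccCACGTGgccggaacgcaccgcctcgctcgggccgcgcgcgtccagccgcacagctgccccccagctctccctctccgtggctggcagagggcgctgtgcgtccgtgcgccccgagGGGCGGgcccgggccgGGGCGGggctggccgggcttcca
The Bcl7b window was 67.6% GC with 3 GC boxes and the Bcl7c window 76.8% GC with 2, and each held 1 E-box. RefSeq promoters were found for 8 of the 10 genes (all but Bcl7a and Smarce1). Only the Bcl7b and Bcl7c windows among these 8 held CACGTG, which 6.02% of 32851 promoters of this length held. All 8 held GGGCGG, which was in 32.7% of those promoters. No window of the 8 genes held CCAAT or TATAAA, which were in 33.8% and 12.4% of all promoters. The median GC content was 71.0% over the 8 genes and 52.4% over all promoters. A match is a description of letters in the window.

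Near the 3′ ends, the sequence TTTTAT or TTTTAAT, known from cytoplasmic polyadenylation elements that set poly(A) tail length in eggs, was searched in the last 150 bases of the longest coding transcript (GENCODE M21). It is shown because the cDNA was primed on poly(A) tails. Each site is given in 30 bases, with the element in capitals.
Bcl7b: ttatgaTTTTATtttttgtctgaaaaaaga
Bcl7c: ttggctTTTTATaaataaagacccttttgt
Smarcd1: acccagTTTTAATaaaagacttctaaagag
These elements ended 119, 20 and 19 bases from the annotated transcript end. The 3 genes are 30% of the 10, and 26% of 10589 tested genes with a transcript match held an element there. Smarcd1 was not tested, so the shares are over unlike sets and nothing is read from them.

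Among the BCL7 genes, Bcl7c was the most abundant in the R26K eggs. Its level was 11.4 and 28.4 CPM with unmutated H3.3, 15.0 and 38.1 CPM with K27R and 853 and 796 CPM with R26K. Both R26K libraries lay above all 4 others, and the H3.3 and K27R libraries overlapped. The difference R26K minus H3.3 was 5.37 ± 0.70 on the log2 scale (SE, 2 libraries a group, edgeR). This difference chose the gene, so it is a description and carries no test. Of the 9 genes that passed the filter, Bcl7c alone was called in that comparison, beside 0.619% of the 10667 genes tested, and nothing is read from that count. The call was lost when either H3.3 library or either K27R library was left out, and also with RLE scaling, with only the 4 libraries compared in the fit and after correcting for transcript GC and length. With every library thinned to 10803477 counts the difference was 5.30 ± 0.68. Random thinning leaves the expected difference of a well-counted gene unchanged, so the part of depth was not tested by it.

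Bcl7c has a near-identical copy, the processed pseudogene Gm3219 on chromosome 14, whose 303 aligned bases are 100% identical to bases 755 to 1057 of the 1132-base Bcl7c transcript. Gm3219 was listed with 105 and 258 counts with unmutated H3.3, 125 and 230 with K27R and 9142 and 7241 with R26K. The 2 rows moved together, and reads from the shared bases cannot be assigned to either gene. The copy held 36.4% to 43.5% of the summed counts in the 4 H3.3 and K27R libraries, against 22.5% and 21.6% with R26K. With both rows summed, R26K minus H3.3 was 4.92 ± 0.67 on the log2 scale, an alternative chosen after the counts were seen. Mir762, which overlaps Bcl7c, was at 0 counts in all libraries.

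Bcl7b, whose counts were at 0 in both H3.3 libraries, was 20.8 and 8.34 CPM with K27R and 87.7 and 67.9 CPM with R26K. The 3 groups did not overlap, with H3.3 lowest and R26K highest. A floor of 3 counts per library in H3.3 is a mean of 0.242 CPM. The R26K mean was 321-fold this floor and the K27R mean 60.2-fold. The floor covers counting error only. In the H3.3 libraries, 7.98% and 11.6% of genes averaging 30 to 60 CPM elsewhere had no count. These folds are therefore not lower bounds on the difference in RNA. The K27R difference from H3.3 did not pass the test (adjusted p = 0.522, unadjusted p = 0.00161, edgeR quasi-likelihood test with Benjamini-Hochberg adjustment). Bcl7b passed the filter only through the groups in which it had counts, so no support is drawn from its p. R26K exceeded K27R by 2.41 ± 1.15 on the log2 scale (SE, edgeR adjusted p = 0.489).

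Bcl7a (chromosome 5, 123343834 to 123374992) was listed at 0 and 6.36 CPM with unmutated H3.3, 7.73 and 0 with K27R and 1.41 and 0.242 with R26K. The groups overlapped in all 3 comparisons. It had only 52 and 8 counts in the R26K libraries. The H3.3 and K27R libraries in which it was seen, with 75 and 95 counts, had the higher cumulus and granulosa sums of their groups (537 and 312 CPM). The K27R library in which it was seen also missed fewer genes averaging 10 to 20 CPM than its pair (5.63% against 33.7%). The H3.3 library did not (35.8% against 32.2%). A link between the Bcl7a counts and these markers or shares was not tested. K27R minus H3.3 was 0.28 ± 3.31 (log2, SE, edgeR adjusted p = 1), and the sign turned when single libraries were left out. Bcl7a exons overlap Gm15860, so reads there could belong to either.

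Per kilobase of merged exons, the summed BCL7 level was 1.58 and 4.61 CPM per kb with unmutated H3.3, 11.6 and 8.75 with K27R and 155 and 138 with R26K. Bcl7c made up 100% and 85.4% of it with unmutated H3.3, 18.0% and 60.3% with K27R and 76.3% and 79.6% with R26K. Bcl7b made up 74.9% and 39.7% in K27R and 23.6% and 20.4% in R26K. These shares depend on the length used. With the longest coding transcript, Bcl7c had 49.6% and 87.6% in K27R and 93.8% and 94.8% in R26K.

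**Figure D1:**
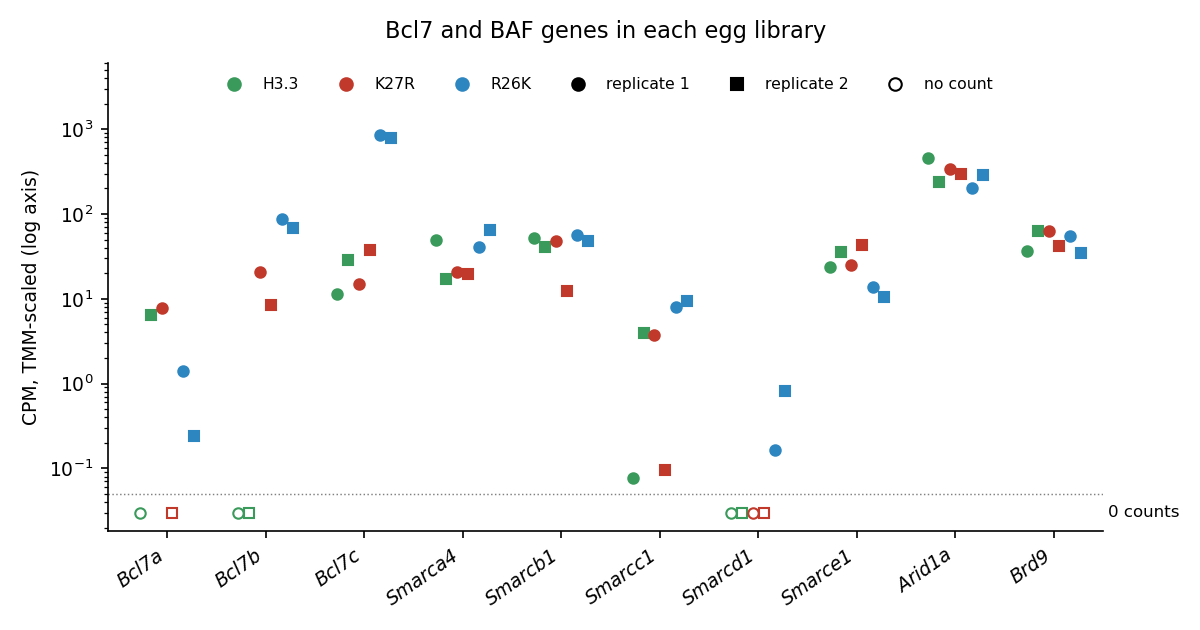
Levels of the 10 genes in each of the 6 libraries (CPM on a log axis, with colours for the H3.3, K27R and R26K groups, circles and squares for replicates 1 and 2, and open symbols for no count). Bcl7c sits at 853 and 796 CPM in R26K against 11.4 to 38.1 CPM in the other 4 libraries, and Bcl7b has no count in H3.3.

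The ATPase gene Smarca4 (chromosome 9, 21616169 to 21704230) had 48.7 and 17.3 CPM with unmutated H3.3, 20.9 and 19.7 with K27R and 40.6 and 64.0 with R26K. The R26K libraries lay above both K27R libraries and overlapped with H3.3, where the 2 libraries differed most. R26K minus H3.3 was 0.67 ± 0.96 and K27R minus H3.3 was -0.70 ± 0.96 (log2, SE, edgeR adjusted p = 0.908 for the second). R26K minus K27R was 1.36 ± 0.97 (adjusted p = 0.733, edgeR). Smarca2, the alternative ATPase, had 121 and 37.5 CPM with unmutated H3.3, 60 and 96.2 with K27R and 57.5 and 71.8 with R26K. Per kilobase of merged exons, Smarca4 made up 47.0% and 50.4% of the ATPase level with unmutated H3.3, 43.4% and 31.1% with K27R and 60.9% and 66.3% with R26K. The R26K shares were above the other 4. Per kilobase of the longest coding part they were 41.2% and 46.9% against 16.9% to 31.4%. A change of length cannot alter the order of libraries, so this is no further check. After the correction for GC content and length described below, R26K minus H3.3 was -0.92 for Smarca4 and -1.10 for Smarca2 (log2). Without it the values were 0.67 and -0.295.

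Of the subunits that canonical BAF shares with PBAF, Smarcb1 (chromosome 10, 75896769 to 75921617), which helps bind the nucleosome, had 51.9 and 41.1 CPM with unmutated H3.3, 48.0 and 12.2 with K27R and 55.9 and 47.6 with R26K. Apart from the second K27R library, all values lay within 41.1 to 55.9 CPM. K27R minus H3.3 was -0.63 ± 0.92 (log2, SE, edgeR adjusted p = 0.925). Smarce1 (chromosome 11, 99209047 to 99231017), a subunit with a DNA-binding HMG domain, had 23.8 and 36 CPM with unmutated H3.3, 25.0 and 43.6 with K27R and 13.7 and 10.5 with R26K. Both R26K libraries were below all 4 others. The R26K minus H3.3 difference was -1.30 ± 1.11, and R26K minus K27R -1.50 ± 1.11 (log2, SE, edgeR adjusted p = 0.759 for the second). Smarce1 has 3 near-identical pseudogenes, none of which is a row of the table, so their reads could have been counted as Smarce1 or dropped.

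The scaffold subunit Smarcc1 (chromosome 9, 110117708 to 110240178) had 0.0765 and 3.99 CPM with unmutated H3.3, 3.74 and 0.0948 with K27R and 8.08 and 9.42 with R26K. The R26K libraries were above the others, while the other 2 groups each held 1 library below 0.1 CPM. These low libraries had the lower cumulus and granulosa sums of their groups (35.1 and 35.4 CPM). The low K27R library also missed more genes averaging 10 to 20 CPM than its pair (33.7% against 5.63%). The low H3.3 library did not (32.2% against 35.8%). Neither link was tested. R26K minus K27R was 2.18 ± 2.73 (log2, SE, edgeR adjusted p = 0.957). Its paralogue Smarcc2 was listed at 0 in all H3.3 and K27R libraries and at 2.98 and 1.84 CPM in R26K. Low transcripts were missed most often in both H3.3 libraries and the second K27R library, so Smarcc2 is not read as absent there. Smarcc1 exons overlap Dhx30 and it has a pseudogene, Gm7004, so its count is uncertain.

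Smarcd1 (chromosome 15, 99702129 to 99713991), a core subunit that links the complex to transcription factors, had counts only in R26K, at 0.163 and 0.816 CPM from 6 and 27 reads. It did not enter the fit. Even genes averaging 10 to 20 CPM had no count in 32.2% and 35.8% of cases in H3.3 and 5.63% and 33.7% in K27R. Smarcd1 is therefore not read as absent there. Its paralogue Smarcd2 had 12.2 and 15.6 CPM with unmutated H3.3, 30.6 and 0.190 with K27R and 169 and 227 with R26K. Smarcd2 held 99.3% and 99.6% of the Smarcd level per kilobase in R26K and 100% in the other 4 libraries. The Smarcd2 difference between R26K and H3.3 was 3.83 ± 1.79 (log2, SE, adjusted p = 0.256, edgeR). Smarcd3 was listed at 1.52 and 0.151 CPM in R26K and 0 elsewhere, with the limit given for Smarcd1.

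Arid1a (chromosome 4, 133679008 to 133756769) encodes the large DNA-binding subunit of canonical BAF. It had 453 and 239 CPM with unmutated H3.3, 335 and 299.9 with K27R and 205 and 287 with R26K. R26K overlapped with H3.3 and lay below both K27R libraries. R26K minus H3.3 was -0.49 ± 0.39, K27R minus H3.3 -0.12 ± 0.39 and R26K minus K27R -0.37 ± 0.39 (log2, SE, edgeR adjusted p = 0.996 and 0.922 for the last 2). Its paralogue Arid1b had 129.5 and 245 CPM with unmutated H3.3, 152 and 329 with K27R and 37.6 and 42 with R26K, with both R26K libraries below all 4 others. For Arid1b the R26K minus H3.3 difference was -2.23 ± 0.54 (log2, SE, unadjusted p = 0.0059, adjusted p = 0.152, edgeR), and R26K minus K27R was -2.60 ± 0.55 (adjusted p = 0.157). Neither passed the edgeR test, and DESeq2 called both. Per kilobase of merged exons, Arid1a held 85.7% and 88.2% of the Arid1 level in R26K against 50.0% to 79.4% in the other libraries.

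Brd9 (chromosome 13, 73937811 to 73960895), a bromodomain reader of acetylated lysine, had 37.0 and 63.5 CPM with unmutated H3.3, 62.9 and 42.4 with K27R and 54.9 and 35 with R26K. All 3 groups overlapped. Against H3.3, R26K differed by -0.16 ± 0.74 and K27R by 0.07 ± 0.74 (log2, SE, edgeR adjusted p = 1 for the second). Brd7, its paralogue in the PBAF form, had 244 and 58.2 CPM with unmutated H3.3, 187 and 181 with K27R and 216 and 161 with R26K, with overlapping groups.

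**Figure D2:**
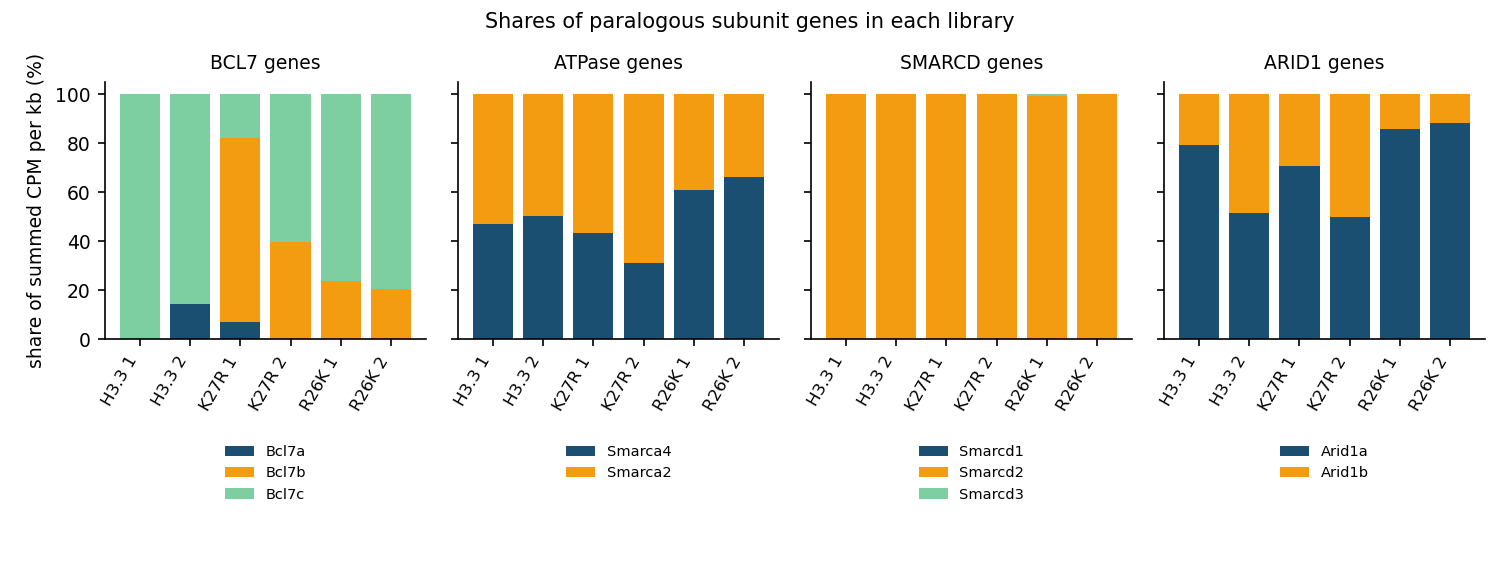
Share of each gene within its paralogue group, as percent of CPM per kilobase of merged exons, in each of the 6 libraries. Bcl7b takes 74.9% and 39.7% of the BCL7 level in K27R and 0% in H3.3, Smarca4 takes 60.9% and 66.3% of the ATPase level in R26K, and Arid1a takes 85.7% and 88.2% of the Arid1 level in R26K.

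Per kilobase of merged exons, the order of mean levels in H3.3 was Arid1a (30.2 CPM per kb), Brd9 (7.23), Smarcb1 (5.86), Smarca4 (5.09), Smarce1 (4.49), Bcl7c (2.76), Bcl7a (0.335) and Smarcc1 (0.259), with Bcl7b and Smarcd1 at 0. The ranges of Brd9, Smarcb1, Smarca4 and Smarce1 overlapped, so their order is not fixed by these libraries. The range of Bcl7c overlapped with those of Smarca4 and Smarce1, and that of Bcl7a with that of Smarcc1, so these places are not fixed either. In R26K the order began with Bcl7c (114 CPM per kb), Bcl7b (32.4) and Arid1a (21.4). The values for these 3 did not overlap in R26K on that length. The order depends on the length used. With the longest coding transcript, Bcl7c was at 728 CPM per kb in R26K, and Smarcb1 (31.2) and Arid1a (30) were close to each other, behind Bcl7b (44.2). In H3.3 on that length, Smarcb1 (28) stood above Brd9 (20.7), and Bcl7c (17.6) above Smarce1 (10.2) and Smarca4 (5.17). There the ranges of Smarcb1 and Brd9 overlapped, and so did those of Bcl7c and Smarce1.

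Across the 9 genes tested, K27R minus H3.3 had a median of 0.07 (log2), beside 0.12 over all 10667 genes. None was called (edgeR), beside 0% of all genes, and 1 of the 9, Bcl7b, had an unadjusted p under 0.05, beside 7.12% of all genes. DESeq2 called 1, Bcl7b, beside 7.8% of the genes to which it gave an adjusted p. In this comparison 1 gene of the 9, again Bcl7b, was higher without overlap (15.9% of all genes) and 0 were lower without overlap (9.62%). Bcl7b passed the filter only through the groups in which it had counts, so nothing is read from its place in these counts. In R26K against H3.3 the median was 0.15, beside 0.66 over all genes, 3 genes (Bcl7b, Bcl7c and Smarcc1) were higher without overlap (44.9% of all genes) and 1 (Smarce1) was lower (15.2%). Those values include the gene that set the choice, so nothing is read from them. In R26K against K27R, which shares the R26K libraries, the median was 0.78, beside 0.32 over all genes. Bcl7b, Bcl7c, Smarca4 and Smarcc1 were higher without overlap (36.3% of all genes), and Smarce1 and Arid1a were lower (17.5%). None of the 9 genes was called there (edgeR), beside 0.375% of all genes, and 1 of the 9, Bcl7c, had an unadjusted p under 0.05, beside 13.2% of all genes. DESeq2 called 1, Bcl7c, beside 8.57% of the genes to which it gave an adjusted p. Since the R26K libraries chose Bcl7c, nothing is read from its place in these counts. The comparisons share control or mutant libraries, so their values are side by side and not independent.

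**Figure D3:**
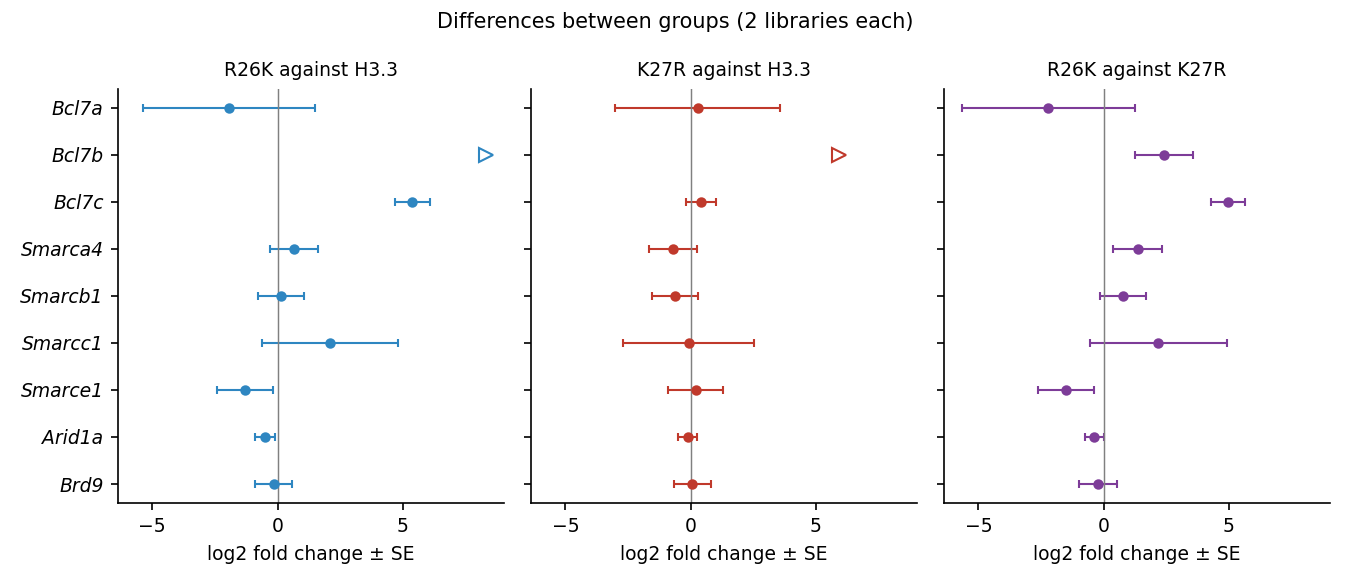
Difference between groups for the 9 genes tested, as log2 fold change with its standard error, for R26K minus H3.3, K27R minus H3.3 and R26K minus K27R. Bcl7c stands at 5.37 ± 0.70 in the first, and Smarce1 at -1.30 ± 1.11. Open triangles mark the folds of Bcl7b over the H3.3 floor, as Bcl7b had no count in H3.3. This floor covers counting error only, so the triangles are not lower bounds on the difference in RNA.

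Bcl7c RNA is unusually rich in G and C. The longest coding transcript was 67.7% GC, the highest among 2847 genes averaging 50 CPM or more, and the next was 64.9%. The other 9 genes ranged from 48.4% (Smarcc1) to 57.2% (Smarcd1), with Bcl7b and Arid1a both at 56.7%. Among those 2847 genes, the median of R26K minus H3.3 was -0.53 (log2) under 45% GC (1004 genes), -0.01 from 45% to 50% (859), 0.57 from 50% to 55% (663), 1.19 from 55% to 60% (279) and 2.52 at 60% or more (42). In K27R minus H3.3 the same medians were between -0.06 and 0.08. Bcl7c ranked 5 of 42 in the last class, whose values ran from -1.41 to 14.53, with 38 above 0.

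When each library was corrected for GC content and length before the fit, R26K minus H3.3 of Bcl7c was 1.80 ± 0.51, against 5.37 without correction. Bcl7c lies at the edge of the range the correction was fitted on. Smarca4 went from 0.67 to -0.92, Smarcb1 from 0.15 to -1.09, and Arid1a from -0.49 to -2.28. The correction thus turned the sign for Smarca4 and Smarcb1, as did upper-quartile scaling for Smarcb1 (-0.04). In R26K minus K27R the correction moved Bcl7c from 4.955 to 1.608 and Bcl7b from 2.41 to 1.03. It moved Smarca4 from 1.36 to 0.16 and Arid1a from -0.37 to -1.61 there. Upper-quartile scaling moved the median of all genes by -0.20 in R26K against H3.3.

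**Figure D4:**
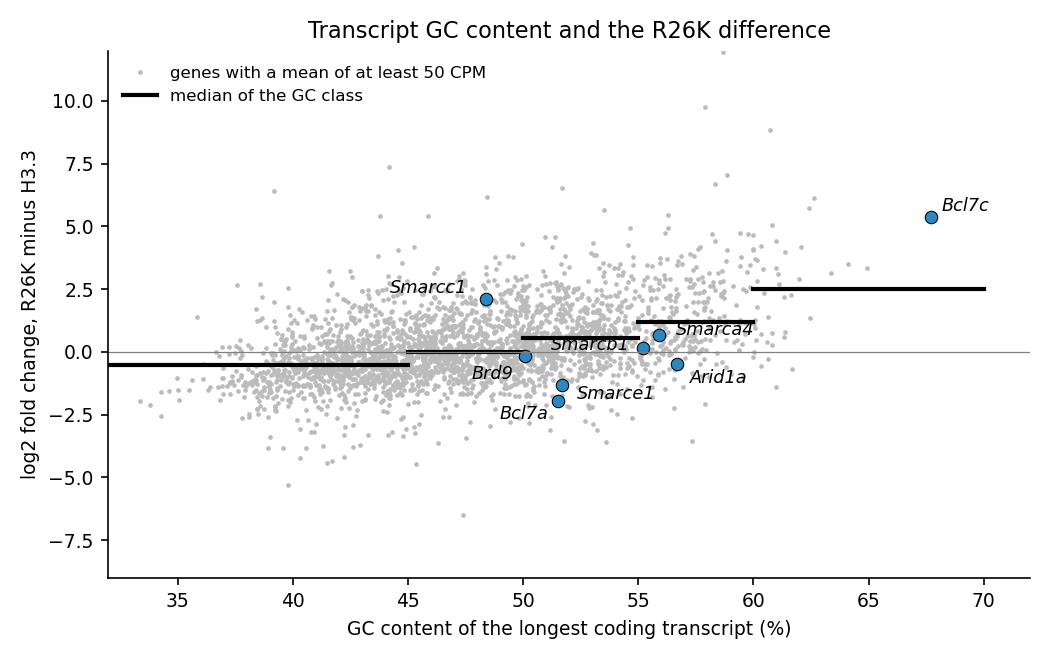
R26K minus H3.3 (log2 fold change) against the GC content (percent) of the longest coding transcript, with a grey point for each of 2847 genes averaging 50 CPM or more and bars for the medians of GC classes. Class medians climb from -0.53 to 2.52 and Bcl7c lies at 67.7% and 5.37. The blue points are 8 of the 10 genes whatever their level (Bcl7b, with no count in H3.3, and Smarcd1 are not drawn), and 6 of the 2847 genes lie outside the axes.

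Genes whose log2(CPM + 1) over the 6 libraries was most like that of Bcl7c were Tmem201 (Pearson r = 0.998), Parp12 (0.997), Smap1 (0.997), Suv39h2 (0.997) and Zfyve21 (0.996), of 5840 genes compared. A further Bcl7 gene, Bcl7b, was at rank 695 (r = 0.788). For Smarca4 they were Smurf1 (0.988), Agfg1 (0.987), Kdm4a (0.975), Add3 (0.973) and Inpp5b (0.970). The 6 libraries fall into 3 groups and differ in depth, so these values describe likeness only.

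The other 19 BAF subunits, from a list drawn up with these results known, had 16 tested genes. None was called in any comparison (edgeR). An unadjusted p under 0.05 was reached by 5 of the 16 in R26K against H3.3 (21.7% of all genes), by 0 in K27R against H3.3 (7.12%) and by 4 in R26K against K27R (13.2%). DESeq2 called 3, 1 and 4 of them, beside 18.1%, 7.8% and 8.57% of the genes to which it gave an adjusted p. Those counted include genes with no count outside R26K, which passed the filter through that group alone. In R26K against H3.3 their median was 0.12, beside 0.66 over all genes.

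Subunits of the non-canonical form were seen in R26K: Gltscr1 at 14.1 and 25.9 CPM, and 0 in the other 4 libraries, and Gltscr1l at 7.05 and 0.997 CPM, with at most 0.813 CPM elsewhere. The Gltscr1 mean in R26K was 82.6-fold the floor of 3 counts per library in H3.3. Gltscr1 passed the filter only through the R26K libraries, so this is given with no test. Dpf2, a reader of canonical BAF, had 0 and 0.679 CPM with unmutated H3.3, 5.94 and 0 with K27R and 7.54 and 14.2 with R26K. Phf10 of the PBAF form had 0 and 10.1 CPM with unmutated H3.3, 10 and 52.1 with K27R and 30.9 and 21.8 with R26K. The libraries in which these genes had no count were those in which missing low transcripts were most common, apart from the first K27R library, and the part of this in the values was not tested.

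Ss18l1 was found at 42.8 CPM in 1 H3.3 library and at 0 in the other, at 0 in both K27R libraries and at 2.77 and 2.75 CPM in R26K. Dpf1 had a count only in 1 K27R library (5.88 CPM). Actl6b, the neural actin-like subunit, was at 0 in all libraries. Actb, chosen here after its values were seen, encodes the actin of the complex and of the cytoskeleton and had 88.8 and 207 CPM with unmutated H3.3, 189.7 and 62.9 with K27R and 14.3 and 19.9 with R26K. R26K minus H3.3 was -3.11 ± 0.77 (log2, SE, edgeR adjusted p = 0.155), and DESeq2 called it.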

How the data were processed

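MII egg RNA was read in 6 libraries, 2 per group, grouped and numbered as in their titles. SMARTer Ultra Low cDNA and Nextera libraries were read on a HiSeq instrument, per the labels. The submitters' processing notes name featureCounts, SAMtools 1.3, TopHat2 2.1.0, cutadapt 1.9.1 and the build mm10. For annotation, strand setting and multi-mapping reads, nothing is given in the sources used here. The values are the authors' deposited read counts per gene, not normalized (24062 genes, 0 columns unused). The members, lists and rules were chosen with earlier results of these data known.

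Counts were scaled by TMM to CPM. Genes were kept by filterByExpr (10667 tested) and fitted with edgeR 4.0.16 (R 4.3.3, glmQLFit and glmQLFTest) with 3 group means over all 6 libraries, leaving 3 residual degrees of freedom. Two-sided tests used Benjamini-Hochberg adjustment at 0.05, and SE is the log2 fold change over the square root of F. The common dispersion was 1.63. The labels call the libraries biological replicates without naming separate females, and the p-values therefore reflect only how these libraries vary, which may be technical. Folds against a group at 0 use a floor of 3 counts per library, for counting error only. They are not lower bounds where a transcript was missed. GC content, lengths and pseudogenes came from GENCODE M21 (23683 of 24062 symbols matched). The correction for GC and length fits each library's deviation with loess (span 0.5) over genes of at least 50 CPM. Steps were tested on simulated data with a much smaller dispersion than these libraries. That checks the code and not how the fit behaves on these data. Genes named are the members, the paralogues, subunits that were called, had the smallest p or had a library without counts, and the remodellers called or with the 2 smallest p. Of 57 remodellers, 1 (Srcap) was not matched. Alternatives were DESeq2 1.42.0, RLE and upper-quartile scaling, other filters, thinning, robust spread, a 4-library fit, the replicate block, the correction, gene length, and leaving out each library.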

Additional observations from a re-analysis of the deposited data

How the results depend on the processing

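Of the 10 genes, 1 was called in R26K against H3.3, 2 with DESeq2, a mean of at least 10 CPM, no filter or the replicate block (Bcl7b and Bcl7c), and 0 with RLE scaling, the GC and length correction or only the 4 libraries compared, with 0 to 2 over libraries left out. In K27R against H3.3 the count of 0 became 1 with DESeq2 (Bcl7b, which had no count in H3.3, so nothing is read from it). In R26K against K27R it became 1 (Bcl7c) with DESeq2, at least 10 CPM, no filter and the replicate block, and 0 to 1 over libraries left out. For all genes, R26K against H3.3 gave 66 (43 higher, 23 lower), 1630 with DESeq2, 25 with the correction (7 higher, 18 lower), 153 at 10 CPM, 241 without a filter, 0 with 4 libraries and 260 with the block, 58 with upper-quartile scaling (31 higher, 27 lower), and 1 to 193 over libraries left out. K27R against H3.3 gave 0, then 687 with DESeq2 and 0 to 5 over libraries left out. R26K against K27R gave 40 (22 higher, 18 lower), 755, 23 with the correction (8 higher, 15 lower), 95, 156 and 195 in that order, 17 higher and 23 lower with upper-quartile scaling, and 0 to 140 over libraries left out. Other BAF subunits went from 0 to 3, 1 and 4 with DESeq2 in the 3 comparisons, and to 1 with the block in R26K against K27R (Arid1b). Other remodellers in R26K against H3.3 went from 1 to 12 with DESeq2, 0 with RLE, upper-quartile scaling, the correction and 4 libraries, 2 at 10 CPM, 6 without a filter and 6 with the block, and 0 to 4 over libraries left out; they were 5 with DESeq2 in K27R against H3.3, and 10 with DESeq2, 2 without a filter and 2 with the block, and 0 to 2 over libraries left out, in R26K against K27R. Reversed K27R minus H3.3 signs were Bcl7a -0.30 (correction) and -2.08 (block), Smarcc1 0.12 (block), and Brd9 -0.093 (correction). The R26K minus K27R sign reversed for Smarcb1 at -0.31 (correction). Over libraries left out, K27R minus H3.3 ran -9.07 to 9.35 for Bcl7a, -0.40 to 1.22 for Bcl7c, -1.26 to 0.24 for Smarca4, -1.93 to 0.042 for Smarcb1, -4.34 to 4.54 for Smarcc1, -0.26 to 0.55 for Smarce1, -0.52 to 0.42 for Arid1a and -0.26 to 0.51 for Brd9. R26K minus K27R ran -3.995 to 7.13 for Bcl7a, -0.619 to 0.085 for Brd9, 1.22 to 6.44 for Smarcc1 and 0.11 to 2.08 for Smarcb1. R26K minus H3.3 ran 4.85 to 6.18 for Bcl7c, -3.70 to 7.14 for Bcl7a, 0.10 to 1.58 for Smarca4, -0.01 to 0.33 for Smarcb1, 1.12 to 6.73 for Smarcc1, -1.58 to -0.97 for Smarce1, -0.88 to 0.03 for Arid1a and -0.54 to 0.28 for Brd9, so that the sign turned for Bcl7a, Smarcb1, Arid1a and Brd9. Same-numbered libraries did not deviate together (r = 0.0143, -0.00864 and 0.021 over 10667 genes). Whether they shared females or a batch cannot be told from these values. The cause of these changes was not tested.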

Other observations

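Other remodellers were listed with these results known: ISWI, CHD and NuRD, INO80 with SRCAP and TIP60, and single ATPases. Of 54 tested, 1 was called in R26K against H3.3, beside 0.619% of all genes: Vps72, a chaperone of the histone H2A.Z. It had 86.9 and 80.5 CPM with unmutated H3.3, 147 and 278 with K27R and 600.0 and 650.4 with R26K, with no overlap between groups. Its R26K minus H3.3 difference was 2.90 ± 0.39 (log2, SE, edgeR adjusted p = 0.0448), and the call was lost with RLE scaling, upper-quartile scaling, the GC and length correction, only 4 libraries, and without either H3.3 or either K27R library. Yeats4, a reader of acetylated histones, had 16.6 and 8.23 CPM with unmutated H3.3, 35.9 and 56.5 with K27R and 236 and 209 with R26K (4.16 ± 0.62, adjusted p = 0.0545, edgeR).

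None of the 54 was called in the other 2 comparisons (edgeR), beside 0% of all genes in K27R against H3.3 and 0.375% in R26K against K27R. An unadjusted p under 0.05 was reached by 6 in the first, beside 7.12% of all genes, and by 12 in the second, beside 13.2%. DESeq2 called 5 and 10, beside 7.8% and 8.57% of the genes to which it gave an adjusted p. The genes with an unadjusted p under 0.05 include some near 0 in H3.3 or outside R26K. Those passed the filter only through the groups in which they were high, so nothing is read from these counts. Ino80, the INO80 ATPase, had 0.0765 and 0.509 CPM with unmutated H3.3, 55.5 and 30.5 with K27R and 18.3 and 15.1 with R26K. Ruvbl2, a helicase subunit, had 0.306 and 0.255 CPM with unmutated H3.3, 1.79 and 0 with K27R and 229.5 and 271 with R26K. Ino80 and Ruvbl2 passed the filter only through the groups in which they were high, so they are given with no test. Gatad2a of NuRD had 177 and 190.5 CPM with unmutated H3.3, 132 and 276 with K27R and 819.7 and 908 with R26K, and R26K minus K27R was 2.08 ± 0.40 (log2, SE, edgeR adjusted p = 0.127). The list's median in R26K against H3.3 was 0.76, beside 0.66 over all genes.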
